A study of Mus musculus with 12 samples.

Results

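The interferon-stimulated genes described here are Ifit1, Ifit2, Ifit3, Isg15, Irf7, Irf9, Stat2, Bst2 and Rtp4, chosen by symbol, and they make up 9 of the 27978 genes in the deposited expression table. RNA was sequenced from mouse hippocampal tissue in 12 libraries after fecal microbiota transplantation (FMT), with 4 libraries in each of the groups FMT-SP, FMT-DSS and FMT-CON. The series describes FMT-SP as FMT-DSS+SP, where SP is the neuropeptide substance P. The labels do not spell out CON or DSS, do not say when or to whom substance P was given, and give no strain, sex or age. Nothing in them states that the libraries come from different animals, and the p-values below therefore measure only the spread between these samples, which may be technical.

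Interferons are secreted proteins that cells release when sensors detect foreign or misplaced nucleic acid. Type I interferons bind the receptor chains IFNAR1 and IFNAR2, and the attached kinases JAK1 and TYK2 phosphorylate STAT proteins, STAT2 among them. STAT2 and IRF9 are subunits of the factor ISGF3, which binds interferon-stimulated response elements (ISREs) in the promoters of many genes. Interferon gamma acts mainly through gamma-activated sites (GAS). In the brain, microglia, astrocytes, endothelial cells and neurons can all respond to interferon, and low tonic signalling keeps some of these genes on without infection.

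The members fall into groups by role. Ifit1, Ifit2 and Ifit3 encode tetratricopeptide proteins that bind RNA and restrict viral translation. Isg15 encodes a ubiquitin-like modifier, Bst2 encodes tetherin, which holds budding virus at the cell surface, and Rtp4 encodes a chaperone of membrane receptors. Irf7 encodes the transcription factor that amplifies type I interferon production, while Irf9 and Stat2 encode subunits of ISGF3. The 3 Ifit genes lie on chromosome 19, Isg15 on 4, Irf7 on 7, Irf9 on 14, Stat2 on 10, Bst2 on 8 and Rtp4 on 16.

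The core of the response element was found in the promoter windows of 5 of the 9 members. The stretches below, from RefSeq promoter windows on GRCm38.p6, are printed because they hold the ISRE core, which is in capitals, and each is written 5′ to 3′ along the strand of its gene. The core searched was GAAA, any 2 bases, GAAA, on either strand, so that it can also read TTTC, any 2 bases, TTTC. Ifit1 is at chr19:34640773-34640825 (plus strand), Ifit3 at chr19:34583361-34583428 (plus), Ifit3b at chr19:34607757-34607824 (plus), Isg15 at chr4:156200863-156200908 (minus), Bst2 at chr8:71537575-71537614 (minus) and Stat2 at chr10:128270264-128270297 (plus).
Ifit1: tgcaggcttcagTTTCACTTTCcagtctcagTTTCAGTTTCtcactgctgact
Ifit3: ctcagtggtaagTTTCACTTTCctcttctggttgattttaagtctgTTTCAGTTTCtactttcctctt
Ifit3b: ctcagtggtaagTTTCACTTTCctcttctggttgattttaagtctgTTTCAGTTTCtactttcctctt
Isg15: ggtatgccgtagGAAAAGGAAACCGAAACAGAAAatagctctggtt
Bst2: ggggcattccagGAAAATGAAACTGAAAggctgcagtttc
Stat2: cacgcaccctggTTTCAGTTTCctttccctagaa

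Each window runs from 250 bases before to 50 bases after the annotated start, and 8 of the 9 members had an entry. Over the whole table, 3.99% of the 27025 genes hold it in any window. Ifit1 and Ifit3 each hold 2 separate copies, Isg15 holds 3 in a row, each overlapping the next, Bst2 holds 2 that overlap, and Stat2 holds 1. The windows of Ifit2, Irf7 and Irf9 do not contain these letters. A GAS, searched as TTCNNNGAA, was found in 1 of the 2 windows of Ifit2 and in that of Bst2, where it overlaps an ISRE core. That motif is present in 8.3% of all 32851 windows. Ifit3 and its neighbouring copy Ifit3b share an unbroken run of 169 identical bases in their windows. These matches describe the letters only.

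**Figure D1:**
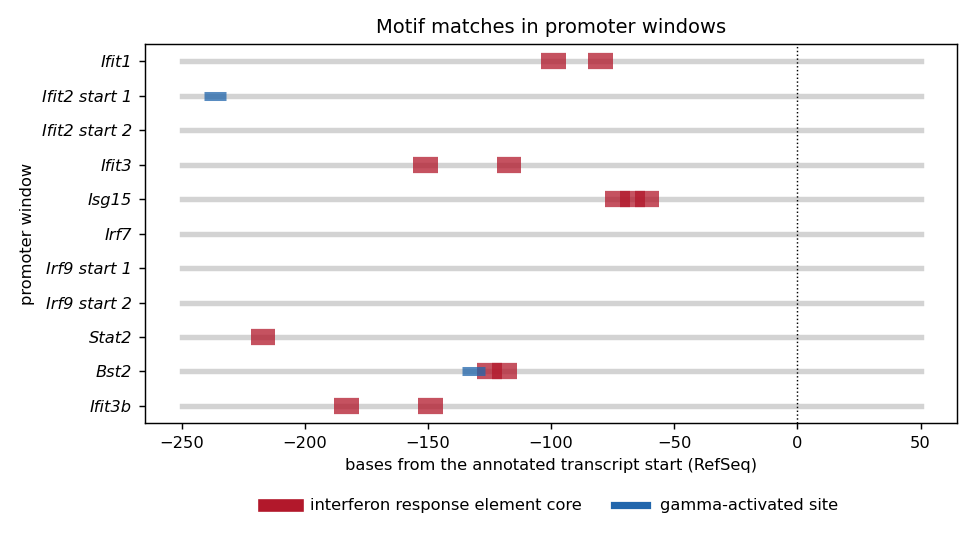
Positions of motif matches in the promoter windows of the members with an entry and of the copy Ifit3b. The x axis is the distance in bases from the annotated start (dotted line), grey bars are the windows of 300 bases, red blocks are ISRE cores and blue blocks are GAS matches. Isg15 has 3 cores in a row, each overlapping the next, and 3 members, Ifit2, Irf7 and Irf9, have none.

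The deposited values are FPKM, fragments per kilobase of transcript scaled to the total of mapped fragments, which corrects for gene length and depth. Steps in the low values put the depth of the libraries at 31.6 M to 37.1 M mapped fragments. Hippocampal neuron markers summed to 760 to 950 FPKM over the 12 libraries, of which Snap25 alone held 646 to 796 FPKM. The others of that list varied more, with Neurod6 at 46.4 to 92.0, Wfs1 at 29.1 to 49.5, Fibcd1 at 11.5 to 29.9 and Prox1 at 5.97 to 15.8 FPKM. Choroid plexus markers summed to 18.1 to 89.3 FPKM in FMT-SP 1, FMT-SP 4, FMT-CON 3 and FMT-CON 4, and to 1304 to 3830 FPKM in the other 8 libraries. Genes encoded in the mitochondrial genome held 24.0% to 29.0% of the FPKM in the 3 libraries numbered 4, against 15.9% to 20.3% in the other 9. Neutrophil markers summed to 185 FPKM in FMT-DSS 2, and pituitary markers to 3581 FPKM in FMT-CON 3. Striatum markers summed to 185 FPKM in FMT-DSS 3, against 29.8 to 95.7 FPKM elsewhere. Thalamus markers summed to 157 FPKM in FMT-CON 1, against 10.3 to 80.8 FPKM elsewhere.

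All 9 interferon-stimulated genes were measured in every library, at low to moderate levels, and the groups overlapped for each of them. Their means over the 12 libraries ran from 0.471 FPKM for Ifit1 to 6.27 FPKM for Stat2. The ISGF3 subunits Stat2 and Irf9 (3.81 FPKM) and the tetherin gene Bst2 (4.19 FPKM) were the most abundant. Ifit3 (1.63 FPKM), Ifit2 (1.52), Isg15 (1.48) and Irf7 (1.09) followed, with Rtp4 at 0.954 FPKM. Among the 12559 genes that averaged 1 FPKM or more, Stat2 stood at percentile 42.9, Bst2 at 30.8 and Irf9 at 28.2. The other 4 that reached that level stood between percentiles 1.6 and 9.0. Ifit1 and Rtp4 did not reach it, so 7 of the 9 members entered the test over all genes. Neighbours in this order, such as Ifit3, Ifit2 and Isg15, had overlapping values across libraries.

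**Figure D2:**
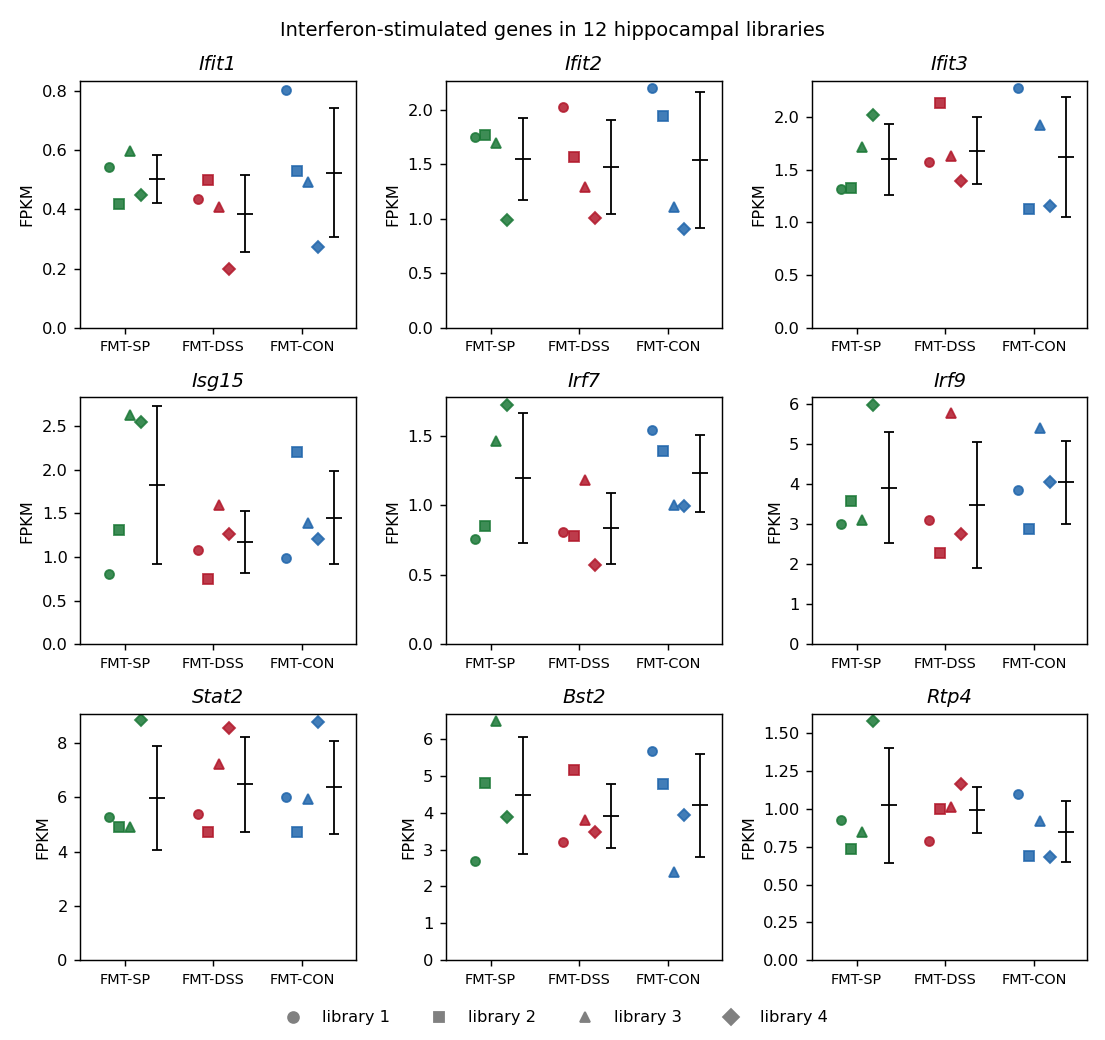
FPKM of each member in every library (points, with the shape giving the library number) beside the group mean ± SD (black, n = 4 libraries) for FMT-SP, FMT-DSS and FMT-CON. The groups overlap for every gene, and Stat2 and Ifit2 separate the libraries numbered 4 (diamonds) from the others in all 3 groups. The share of all genes that do so was not counted.

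Isg15 had 0.804, 1.31, 2.63 and 2.55 FPKM in the FMT-SP libraries 1 to 4, 1.08, 0.75, 1.60 and 1.26 FPKM in FMT-DSS, and 0.983, 2.21, 1.39 and 1.21 FPKM in FMT-CON. The 2 highest of all 12 values were in FMT-SP, but so was the second lowest, and the groups overlapped. The group means were 1.82 ± 0.91 FPKM in FMT-SP, 1.17 ± 0.354 FPKM in FMT-DSS and 1.45 ± 0.532 FPKM in FMT-CON (SD, n = 4 each). The coefficient of variation over the 12 libraries was 43.4%, the largest among the members. Isg15 is short, and its values rest on an estimated 21 to 73 fragments, so counting alone gives a coefficient of variation of about 17.4% at the median.

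Irf7 had 0.757, 0.852, 1.46 and 1.72 FPKM in FMT-SP, 0.806, 0.782, 1.18 and 0.569 FPKM in FMT-DSS, and 1.54, 1.39, 1.0 and 0.993 FPKM in FMT-CON. In FMT-DSS all libraries but FMT-DSS 3 lay below the lowest FMT-CON value, while FMT-SP spanned nearly the whole range. The means were 1.2 ± 0.468 FPKM in FMT-SP, 0.835 ± 0.255 FPKM in FMT-DSS and 1.23 ± 0.275 FPKM in FMT-CON (SD, n = 4 each).

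Stat2 had 5.28, 4.89, 4.89 and 8.83 FPKM in FMT-SP, 5.40, 4.71, 7.23 and 8.55 FPKM in FMT-DSS, and 6.02, 4.73, 5.92 and 8.76 FPKM in FMT-CON. In each group library 4 was the highest, and the 3 libraries numbered 4 held 8.55 to 8.83 FPKM, against 4.71 to 7.23 FPKM in the other 9. Irf9 had 3.01, 3.57, 3.09 and 5.96 FPKM in FMT-SP, 3.10, 2.27, 5.77 and 2.75 FPKM in FMT-DSS, and 3.84, 2.87, 5.39 and 4.06 FPKM in FMT-CON. Its highest value lay in a different library number in FMT-SP (library 4) than in FMT-DSS and FMT-CON (library 3). The kinase gene Tyk2 was also high in the libraries numbered 4, with 6.94 FPKM in FMT-SP 4, 5.72 FPKM in FMT-DSS 4 and 6.52 FPKM in FMT-CON 4.

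Ifit2 ran the other way. It had 1.75, 1.77, 1.70 and 0.987 FPKM in FMT-SP, 2.03, 1.57, 1.29 and 1.01 FPKM in FMT-DSS, and 2.20, 1.94, 1.11 and 0.907 FPKM in FMT-CON. The 3 libraries numbered 4 were the lowest of all 12, at 0.907 to 1.01 FPKM against 1.11 to 2.20 FPKM. Ifit1 had 0.544, 0.42, 0.598 and 0.45 FPKM in FMT-SP, 0.435, 0.501, 0.41 and 0.198 FPKM in FMT-DSS, and 0.804, 0.529, 0.493 and 0.272 FPKM in FMT-CON, with its lowest values in FMT-DSS 4 and FMT-CON 4. The higher mitochondrial share of the libraries numbered 4 moved with both patterns, and its part in them was not tested. How many of all genes set these libraries apart from the others was not counted, so the patterns may not be particular to Stat2 and Ifit2.

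Ifit3 had 1.32, 1.33, 1.72 and 2.02 FPKM in FMT-SP, 1.57, 2.13, 1.63 and 1.39 FPKM in FMT-DSS, and 2.28, 1.13, 1.92 and 1.16 FPKM in FMT-CON. The FMT-CON libraries held both its highest and its lowest value. Of the 100-base windows of its transcript, 31.7% also occur in Ifit3b, so reads of the pair may be divided between them, and the Ifit3 level is uncertain to that extent. Ifit3b averaged 0.831 ± 0.0804 FPKM in FMT-SP, 1.08 ± 0.423 FPKM in FMT-DSS and 0.875 ± 0.24 FPKM in FMT-CON (SD, n = 4 each), with overlapping groups. The related copies Ifit1bl1 and Ifit1bl2 averaged 0.804 and 0.127 FPKM over the 12 libraries, also with overlapping groups.

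Bst2 had 2.70, 4.79, 6.47 and 3.89 FPKM in FMT-SP, 3.21, 5.14, 3.81 and 3.48 FPKM in FMT-DSS, and 5.66, 4.77, 2.40 and 3.94 FPKM in FMT-CON. It was between 2.40 and 3.94 FPKM in the 4 libraries with few choroid plexus transcripts and between 3.21 and 6.47 FPKM in the other 8, and the part of that tissue in its level was not tested. Rtp4 had 0.928, 0.733, 0.85 and 1.58 FPKM in FMT-SP, 0.789, 0.999, 1.01 and 1.16 FPKM in FMT-DSS, and 1.10, 0.687, 0.922 and 0.682 FPKM in FMT-CON. Its highest value was in FMT-SP 4 and its lowest in FMT-CON 4. In bulk tissue, fewer cells of a type and less RNA per cell cannot be told apart.

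The comparison of FMT-DSS with FMT-CON asks what the FMT-DSS transplant did to gene expression relative to the FMT-CON transplant. None of the 7 tested members passed an adjusted p of 0.05 in limma with Benjamini-Hochberg adjustment over 12559 genes, and 0 of the 7 had an unadjusted p under 0.05. The background was also 0% of all tested genes past the adjusted threshold and 4.06% at an unadjusted p under 0.05. Irf7 lay furthest from 0, at a log2 change of −0.28 ± 0.16 (SE; 95% interval −0.64 to 0.07), with a limma adjusted p of 0.966 and an exact permutation p of 0.0857 (two-sided). The smallest p that 4 against 4 libraries allow is 0.0286. Irf9 was at −0.21 (−0.73 to 0.32) and Isg15 at −0.16 (−0.66 to 0.34). The other 4 tested members lay between −0.05 and 0.05. The median change of the 7 members was −0.05, against −0.03 over all tested genes, and it ran from −0.14 to 0.01 when 1 library was left out at a time.

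The comparison of FMT-SP with FMT-DSS asks what substance P added to the FMT-DSS setting. Again 0 of the 7 members passed the adjusted threshold in limma and 0 had an unadjusted p under 0.05, with a background of 0% and 2.5% of tested genes. Isg15 was at 0.33 ± 0.23 (SE; 95% interval −0.17 to 0.83), with a limma adjusted p of 0.999 and an exact permutation p of 0.257. Irf7 was at 0.25 ± 0.16 (−0.11 to 0.60), with an exact permutation p of 0.229. The other 5 lay between −0.11 for Stat2 and 0.15 for Irf9. The median was 0.12, against 0.03 over all tested genes. It was −0.02 with library weights, −0.01 without FMT-DSS 2 and FMT-DSS 4, 0.02 without FMT-SP 3 and 0.24 without FMT-SP 1. With library weights Isg15 was at −0.01 and Irf7 at −0.00. This comparison shares the FMT-DSS libraries with the one before, so the values of Irf7 and Isg15 in both are not independent.

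The comparison of FMT-SP with FMT-CON gave 0 of 7 members past the adjusted threshold in limma and 0 with an unadjusted p under 0.05, with a background of 0% and 0.358%. Isg15 was at 0.17 ± 0.23 (SE; 95% interval −0.33 to 0.67), and the other 6 lay between −0.09 for Stat2 and 0.07 for Bst2. The median was 0.00, against −0.01 over all tested genes, and it ran from −0.07 to 0.07 when 1 library was left out at a time. It was −0.15 with library weights and −0.12 without the libraries numbered 4, each with 2 members higher and 5 lower.

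With the 2 members below the filter included, 6 of 9 were lower and 3 higher in FMT-DSS than in FMT-CON, where 58.8% of the 17321 genes that averaged 0.1 FPKM or more were lower. In FMT-SP, 7 of 9 were higher and 2 lower than in FMT-DSS, where 43.8% of those genes were lower, and 5 were higher and 4 lower than in FMT-CON, where 54.9% were lower. The count in FMT-SP against FMT-DSS turned with the setting: of the 7 tested members, 5 were higher and 2 lower in the main test, 1 higher and 6 lower with library weights, and 3 higher and 4 lower without FMT-DSS 2 and FMT-DSS 4. In FMT-DSS against FMT-CON, 5 of the 7 were lower in the main test and 3 without those libraries. Groups that did not overlap were found for 0 of 9 members in each comparison, against a background of 1.75%, 1.27% and 0.494% of the 12559 tested genes in the order of the comparisons above. Between FMT-DSS and FMT-CON, Ifit1 differed by −0.13 and Rtp4 by 0.11. Between FMT-SP and FMT-DSS, Ifit1 differed by 0.12 and Rtp4 by 0.01. Between FMT-SP and FMT-CON, Ifit1 differed by −0.01 (exact permutation p = 0.943) and Rtp4 by 0.12 (exact permutation p = 0.486). The intervals of the tested members reached from −0.73 to 0.49, from −0.58 to 0.83 and from −0.58 to 0.67, so changes within those bounds are not resolved by these libraries.

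**Figure D3:**
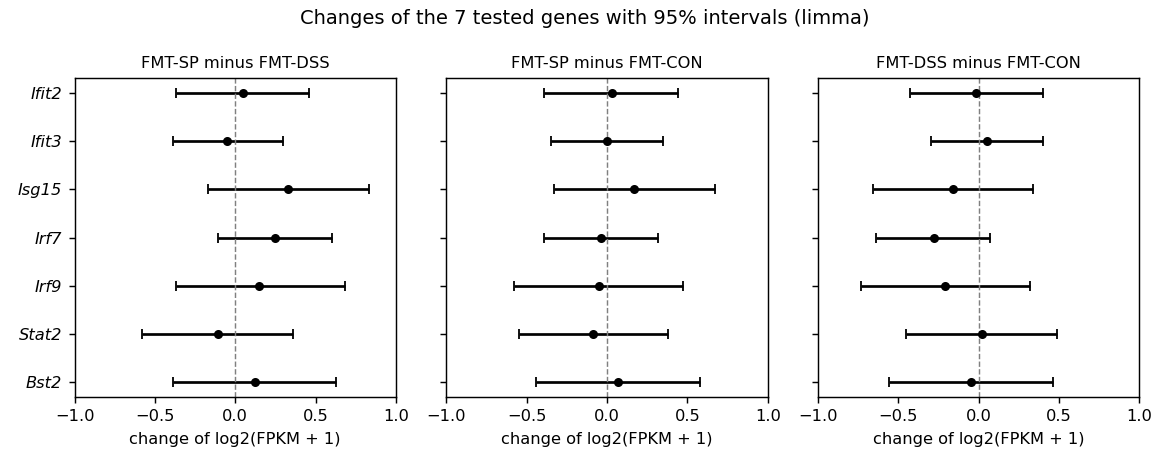
Change of log2(FPKM + 1) for the 7 tested members in each comparison (points) with the 95% interval from limma (bars). Every interval includes 0, and the widest departures are Isg15 at 0.33 in FMT-SP minus FMT-DSS and Irf7 at −0.28 in FMT-DSS minus FMT-CON.

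Within the 12 libraries the members did not move as a block. Of 36 pairs, 25 had a positive and 11 a negative Pearson correlation on the log2(FPKM + 1) scale, with a median r of 0.18, and 0 passed 0.05 after Benjamini-Hochberg adjustment of the permutation p over the 36 pairs. Isg15 and Irf7 had r = 0.69 (permutation p = 0.013, adjusted 0.156; Spearman rho 0.63, permutation p = 0.0317, adjusted 0.307), 0.45 without FMT-SP 3 and FMT-SP 4, and 0.66 among the 9 libraries not numbered 4. Ifit1 and Ifit2 had r = 0.71 (permutation p = 0.00552, adjusted 0.0994; rho 0.58, permutation p = 0.0511, adjusted 0.307), 0.55 without FMT-CON 1 and FMT-DSS 4, and 0.48 among the 9 libraries not numbered 4. Ifit3 and Rtp4 had r = 0.63 (permutation p = 0.0239, adjusted 0.215; rho 0.66, permutation p = 0.0245, adjusted 0.307), 0.56 without FMT-CON 1 and FMT-CON 2, and 0.80 among those 9. Ifit2 and Stat2 had r = −0.80 (permutation p = 0.00286, adjusted 0.0994; rho −0.59, permutation p = 0.0481, adjusted 0.307), −0.65 without FMT-CON 4 and FMT-SP 4, and −0.40 among the 9 libraries not numbered 4. Irf9 and Stat2, which bind each other as proteins, had r = 0.54 (permutation p = 0.0701, adjusted 0.32; rho 0.66, permutation p = 0.022, adjusted 0.307), 0.29 without FMT-DSS 3 and FMT-SP 4, and 0.86 among the 9 libraries not numbered 4.

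The mean of the 7 tested members, each centred on its own mean, was 0.04 ± 0.21 in FMT-SP, −0.07 ± 0.12 in FMT-DSS and 0.03 ± 0.10 in FMT-CON (SD, n = 4 each) on the log2 scale. FMT-SP held both ends, with 0.26 in FMT-SP 4 and −0.22 in FMT-SP 1. The tested genes outside the list whose values over the 12 libraries were most like this mean included Scamp2 (r = 0.90), Fmnl3, Slc25a39, Acot8, Tpp1, Tmem39a, Nr2f6 and Zfp219 (0.82), from the 10 highest of 12552, and are given as a description.

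**Figure D4:**
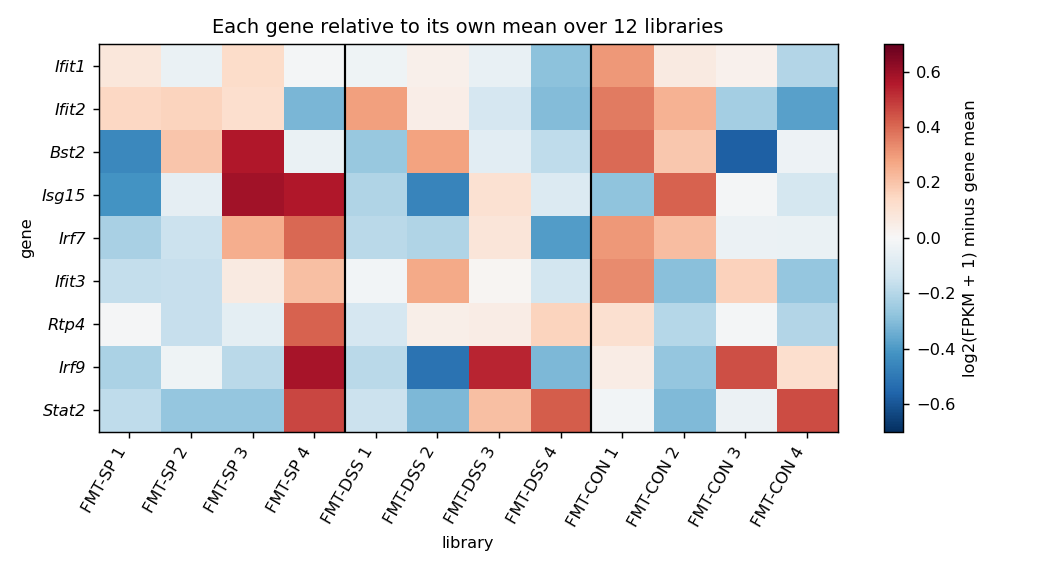
log2(FPKM + 1) of each member minus its own mean over the 12 libraries, with libraries in columns (FMT-SP, FMT-DSS, FMT-CON, separated by lines) and genes in rows. Isg15, Irf7 and Irf9 are high together in FMT-SP 4, Stat2 is high and Ifit2 low in every library numbered 4, and no group is of a single colour.

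Upstream of these genes, the interferons themselves were near the floor of detection. Of 16 interferon ligand genes listed, 8 were in the table. Each of the 8 was listed at 0 in at least 6 of the 12 libraries, and the highest value was 0.165 FPKM, for Ifne in FMT-DSS 1. Ifnb1, the first type I interferon made by most cells, was listed at 0 in every library except FMT-CON 1, and Ifng, the gene of interferon gamma, in every library except FMT-DSS 4. None was tested.

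The receptors of type I interferon and interferon gamma and their kinases were present, while the lambda receptor gene Ifnlr1 reached at most 0.162 FPKM. Of 16 genes for receptors and JAK-STAT signalling, 13 were tested, and 0 passed the adjusted threshold in limma in any comparison. In FMT-SP against FMT-DSS, 2 had an unadjusted p under 0.05, both with a higher mean in FMT-SP, while 0 did so in FMT-DSS against FMT-CON or in FMT-SP against FMT-CON. Over all tested genes the shares were 2.5%, 4.06% and 0.358%, in that order. Ifnar1, the low-affinity chain of the type I receptor, had 6.43, 6.49, 6.20 and 6.34 FPKM in FMT-SP, 6.24, 5.03, 5.44 and 4.6 FPKM in FMT-DSS, and 6.24, 6.07, 5.71 and 5.95 FPKM in FMT-CON. Only FMT-DSS 1 among the FMT-DSS libraries reached the FMT-SP range. The change was 0.23 ± 0.09 in FMT-SP against FMT-DSS (SE; limma unadjusted p = 0.0297, adjusted 0.999) and −0.15 ± 0.09 in FMT-DSS against FMT-CON (limma adjusted p = 0.966). Ifngr2, a chain of the interferon gamma receptor, averaged 25.0 ± 2.05 FPKM in FMT-SP, 20.3 ± 4.09 FPKM in FMT-DSS and 23.9 ± 3.41 FPKM in FMT-CON (SD, n = 4 each). Microglia markers summed to 109 to 133 FPKM in FMT-SP, 56.2 to 122 FPKM in FMT-DSS and 95 to 132 FPKM in FMT-CON, and their part in these receptor levels was not tested.

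Ptpn11, a phosphatase of JAK-STAT signalling, averaged 32.8 ± 5.38 FPKM in FMT-SP, 40.8 ± 6.75 FPKM in FMT-DSS and 33.3 ± 6.37 FPKM in FMT-CON. Socs3, a feedback inhibitor, averaged 0.647 ± 0.036 FPKM in FMT-SP, 2.67 ± 3.38 FPKM in FMT-DSS and 0.719 ± 0.417 FPKM in FMT-CON, and the FMT-DSS mean rests on 7.67 FPKM in FMT-DSS 2. Ifnar2, Jak1 and Pias1, named for FMT-SP against FMT-CON, differed by −0.09, 0.14 and 0.11 on the log2 scale, each with overlapping groups.

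Of 18 sensors, adaptors and kinases that lead to interferon production, 9 were tested and 0 passed the adjusted threshold in limma. In FMT-DSS against FMT-CON 1 had an unadjusted p under 0.05, beside 4.06% of all tested genes. This was Myd88, the adaptor of most Toll-like receptors, at 2.53 ± 0.488 FPKM in FMT-DSS and 3.39 ± 0.393 FPKM in FMT-CON (limma unadjusted p = 0.0483, adjusted 0.966). None of the 9 tested genes had an unadjusted p under 0.05 in the other comparisons. Of all tested genes, 2.5% did so in FMT-SP against FMT-DSS and 0.358% in FMT-SP against FMT-CON. Irf3, the factor that first turns on Ifnb1, averaged 8.20 ± 2.12 FPKM in FMT-SP, 6.44 ± 2.21 FPKM in FMT-DSS and 8.92 ± 2.14 FPKM in FMT-CON. Tbk1, the kinase of IRF3, averaged 14.8 ± 0.578, 17.6 ± 2.39 and 15.0 ± 2.10 FPKM in FMT-SP, FMT-DSS and FMT-CON. Rigi, Traf3, Sting1 and Ticam1 were the remaining genes of smallest p, with differences of 0.12 for Rigi in FMT-DSS against FMT-CON, 0.23 for Traf3 and 0.20 for Sting1 in FMT-SP against FMT-DSS, and −0.10 for Ticam1 in FMT-SP against FMT-CON.

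**Figure D5:**
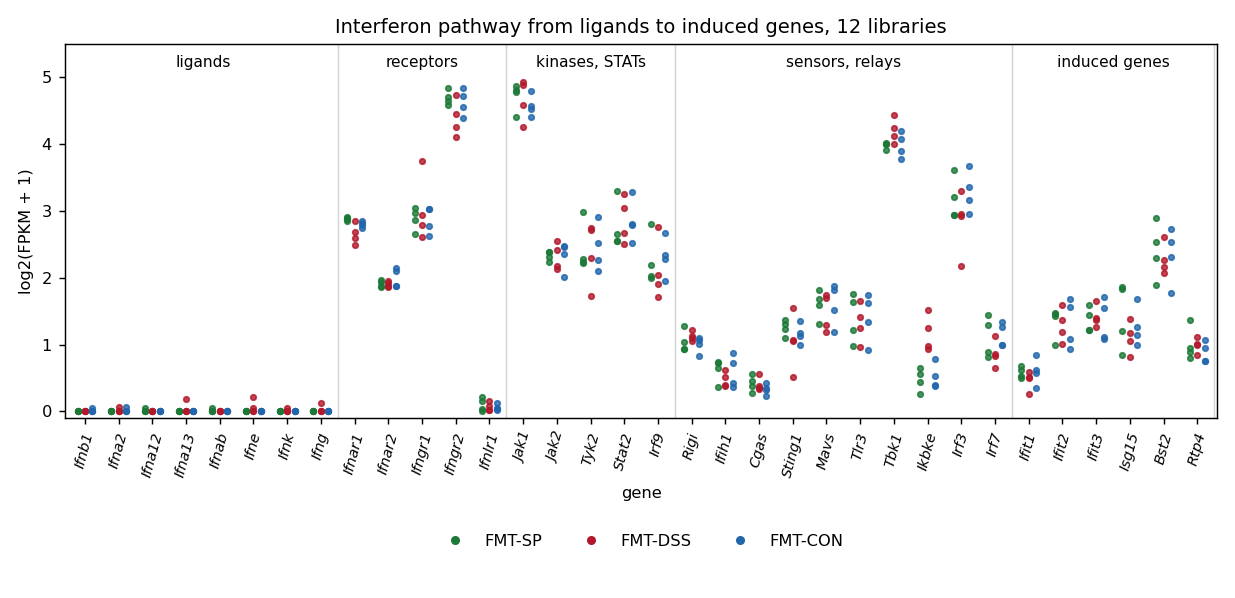
Levels of interferon pathway genes as log2(FPKM + 1), with 1 point per library, coloured by group (FMT-SP, FMT-DSS and FMT-CON from left to right within each gene). Ligands and the receptor gene Ifnlr1 lie at or near 0. The other receptors and the kinases are present, and the member Stat2 lies above the receptor gene Ifnar2 in every library. Ikbke is the only gene shown whose FMT-DSS values all lie above both other groups.

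Ikbke, the kinase related to Tbk1, was chosen after its values were seen. It had 0.364, 0.201, 0.47 and 0.569 FPKM in FMT-SP, 1.37, 0.912, 1.87 and 0.971 FPKM in FMT-DSS, and 0.297, 0.314, 0.717 and 0.447 FPKM in FMT-CON. All 4 FMT-DSS libraries lay above every library of the other groups. Its 12-library mean of 0.709 FPKM kept it below the filter of the main test. With the filter at 0.1 FPKM the change was 0.65 ± 0.14 (SE) in FMT-DSS against FMT-CON, with a limma unadjusted p of 0.000546 and an adjusted p of 0.949. It was −0.69 ± 0.14 in FMT-SP against FMT-DSS, with an unadjusted p of 0.000328 and an adjusted p of 0.999. The exact permutation p was 0.0286 in each, the smallest possible, and both use the FMT-DSS libraries. A first group above the other without overlap was found for 0.548% of the 17321 genes in FMT-DSS against FMT-CON, and the reverse for 0.808% in FMT-SP against FMT-DSS.

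Of 54 further genes induced by type I interferon, 51 were in the table and 19 tested, and 0 passed the adjusted threshold in limma. Unadjusted p-values under 0.05 were found for 1 in FMT-DSS against FMT-CON, 2 in FMT-SP against FMT-DSS and 0 in FMT-SP against FMT-CON. Over all tested genes the shares were 4.06%, 2.5% and 0.358%, in that order. Znfx1, an RNA helicase with antiviral activity, had 5.35, 5.80, 5.42 and 4.33 FPKM in FMT-SP, 7.0, 8.68, 6.36 and 9.12 FPKM in FMT-DSS, and 6.78, 6.45, 4.71 and 4.38 FPKM in FMT-CON. The FMT-SP and FMT-DSS libraries did not overlap, as was the case for 1.27% of all tested genes, while FMT-DSS and FMT-CON did. The change was −0.49 ± 0.15 in FMT-SP against FMT-DSS (SE; limma unadjusted p = 0.00619, adjusted 0.999) and 0.42 ± 0.15 in FMT-DSS against FMT-CON (limma adjusted p = 0.966). Ifitm2, a membrane protein that blocks viral entry, averaged 5.18 ± 1.10 FPKM in FMT-SP, 9.57 ± 5.62 FPKM in FMT-DSS and 5.99 ± 1.49 FPKM in FMT-CON, with its highest value of 17.5 FPKM in FMT-DSS 2. Parp9, Shisa5, Ifi35, Ifitm1 and Herc6 were also among the smallest p, with differences from −0.39 for Ifitm1 in FMT-SP against FMT-CON to 0.27 for Shisa5 in FMT-SP against FMT-DSS.

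Of 30 genes induced mainly by interferon gamma, 29 were in the table and 11 tested. The count past the adjusted threshold in limma was 0, and 0 had an unadjusted p under 0.05 in any comparison. The shares of all tested genes with such an unadjusted p were 4.06% in FMT-DSS against FMT-CON and 2.5% in FMT-SP against FMT-DSS. In FMT-SP against FMT-CON the share was 0.358%. Igtp, an immunity-related GTPase, had 1.08, 1.75, 1.96 and 1.26 FPKM in FMT-SP, 1.23, 1.21, 0.927 and 1.10 FPKM in FMT-DSS, and 2.25, 1.65, 1.36 and 1.29 FPKM in FMT-CON. FMT-DSS lay wholly below FMT-CON, at −0.30 ± 0.14 on the log2 scale (SE; limma unadjusted p = 0.0561, adjusted 0.966). These groups did not overlap, in either direction, for 1.75% of all tested genes. Irf8, a factor of microglia and other myeloid cells, averaged 1.06 ± 0.198 FPKM in FMT-DSS and 1.38 ± 0.256 FPKM in FMT-CON. The antigen presentation genes H2-K1 and B2m averaged 9.46 ± 1.40 and 107 ± 14.7 FPKM in FMT-SP, 13.1 ± 4.53 and 121 ± 25.0 FPKM in FMT-DSS, and 10.4 ± 1.27 and 122 ± 20.3 FPKM in FMT-CON. Tap2, H2-D1 and Psmb8, the others of smallest p, differed by 0.15 in FMT-DSS against FMT-CON, −0.21 in FMT-SP against FMT-DSS and −0.17 in FMT-SP against FMT-CON.

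With the filter at 0.1 FPKM, which lets more of these genes in, 32 of 46 further type I genes and 19 of 26 gamma genes were lower in FMT-DSS than in FMT-CON, beside 58.8% of all genes. In FMT-SP, 31 of the 46 and 15 of the 26 were higher than in FMT-DSS. The shares that were lower there were 32.6% and 42.3%, beside 43.8% of all genes. None passed the adjusted threshold in limma. An unadjusted p under 0.05 was found between FMT-DSS and FMT-CON for 3 type I and 2 gamma genes, and between FMT-SP and FMT-DSS for 4 type I and 2 gamma genes. Over all 17321 genes the shares were 4.38% and 3.09%. Genes of low level whose FMT-DSS libraries lay below every FMT-CON library were Oas1a, Gbp9 and Socs1, as was the case for 1.35% of the 17321 genes. Gbp9, a guanylate-binding protein, averaged 0.701 ± 0.0905 FPKM in FMT-SP, 0.442 ± 0.0948 FPKM in FMT-DSS and 0.789 ± 0.143 FPKM in FMT-CON, and its FMT-SP libraries lay above every FMT-DSS library. Iigp1 averaged 0.639 ± 0.111 FPKM in FMT-SP, 0.332 ± 0.126 FPKM in FMT-DSS and 0.598 ± 0.276 FPKM in FMT-CON. Its FMT-SP libraries also lay above every FMT-DSS library, as was the case for 0.779% of all genes, but FMT-DSS and FMT-CON overlapped. These genes were picked for groups that do not overlap and are a description.

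FMT-DSS 2 held extreme values of interferon-induced genes in both directions, which was seen after the values were known. Of the 9 members, 3 had their lowest value of the 12 libraries there and 0 their highest. Of the 51 further type I genes, 11 had their highest and 5 their lowest value there, and of the 29 gamma genes 6 and 2. The same count over all genes was not made, so whether these counts are particular to interferon-induced genes is not known. This library held the highest Lcn2 (285 FPKM), Socs3 (7.67 FPKM), Cxcl10 (2.43 FPKM) and Ifitm3 (48.9 FPKM) of all 12 libraries, of which Cxcl10 and Ifitm3 are themselves in the interferon-induced lists. In the same library Isg15 (0.75 FPKM), Irf9 (2.27 FPKM) and Stat2 (4.71 FPKM) were the lowest of the 12, as were Usp18 (0.122 FPKM), which removes ISG15 from proteins, and Oas1a (0.0277 FPKM). Ifit3 (2.13 FPKM) and Bst2 (5.14 FPKM) were the highest of the FMT-DSS group there. Its neutrophil markers summed to 185 FPKM and its monocyte markers to 23.1 FPKM, and their part in these levels was not tested.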

How the data were processed

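The authors deposited 1 FPKM value per gene and library. The submitters' processing notes list HISAT2 2.0 and, with no role, build mm8. For the counter and annotation the entry is: not given in the sources used here. Total RNA was extracted with Trizol, per the labels' protocols. Groups and library numbers came from the sample titles. The members and lists were chosen with earlier results of these data known. Genes named beyond the members are, per list and comparison, up to 4 of smallest unadjusted p, plus those said to be chosen after their values were seen. Some genes that these rules select are not reported here, though counts include them.

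Values were tested as log2(FPKM + 1) in all 12 libraries with limma 3.58.1 (R 4.3.3), with a mean-variance trend, Benjamini-Hochberg adjustment and a filter at a mean of 1 FPKM, which left 12559 genes. A fold change on this scale understates the change of low genes. Single members also got an exact two-sided permutation test over the 70 assignments of 8 libraries (Python 3.11.15, SciPy 1.17.1). Correlation p-values used 100000 permutations. Depth was estimated from FPKM steps in 4713 genes with 1 transcript in the GENCODE annotation of GRCm38. Between 38.7% and 41.5% of low values lay within 0.05 of a whole fragment, against 10% by chance, so counts were not recovered; fragment numbers are estimates and cover counting error only. Promoter sequences are from RefSeq, and the files' build differs, so no other coordinates are given. Alternatives were another pseudocount, 2 filters, 2 rescalings, library weights, a replicate block, leaving out libraries, 2-group fits and no trend.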

Additional observations from a re-analysis of the deposited data

Results flagged for a closer look

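In 42 interferon pathway genes, 126 gene-by-group sets of 4 libraries were examined for 1 library far from the other 3, and 5 were found, of which 2 of 27 sets concern members. Chance alone flags about 1 in 20 such sets. Ifit2 was 0.987 FPKM in FMT-SP 4, against 1.70 to 1.77 FPKM in the other FMT-SP libraries. Stat2 was 8.83 FPKM in FMT-SP 4, against 4.89 to 5.28 FPKM in the others. Tbk1 was 14.0 FPKM in FMT-SP 4, against 15.0 to 15.2 FPKM. Socs3 was 1.34 FPKM in FMT-CON 4, against 0.484 to 0.54 FPKM in the other FMT-CON libraries. B2m was 152 FPKM in FMT-CON 3, against 110.3 to 115 FPKM.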

How the results depend on the processing

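No setting called a gene or a member: the counts past the adjusted threshold in limma stayed at 0 in each comparison. At an unadjusted p under 0.05, 1 member passed in 1 setting, Isg15 in FMT-SP against FMT-DSS without FMT-SP 1 (0.53, limma unadjusted p = 0.0293, adjusted 1.0). The labels do not say whether library numbers pair the samples. Libraries were therefore correlated over the tested genes after the mean of its group was subtracted from each value. The 12 same-number pairs correlated from −0.45 to 0.84, and 9 of them above 0.1. Pairs among the libraries numbered 4 had 0.72, 0.84 and 0.69. For 7 of 12 libraries the best correlation with a library of another group was with one of their own number. The count that chance alone would give was not computed, so pairing is not settled. With the replicate block 0 genes and 0 members were called, while 1274, 885 and 310 genes had an unadjusted p under 0.05 in the 3 comparisons (FMT-DSS minus FMT-CON, then FMT-SP minus FMT-DSS, then FMT-SP minus FMT-CON), against 510, 314 and 45 without it. Library weights gave 1146 in FMT-SP against FMT-CON.

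Signs of member changes depended on the setting, including those of Isg15 and Irf7 in FMT-SP against FMT-DSS, and the cause was not tested. The library weights in FMT-SP were 4.69 for FMT-SP 1, 2.31 for FMT-SP 2, 1.11 for FMT-SP 3 and 0.509 for FMT-SP 4. FMT-SP 1, with the largest weight, held the lowest FMT-SP values of Isg15 (0.804 FPKM) and Irf7 (0.757 FPKM). In FMT-DSS against FMT-CON, Ifit2 was 0.01 with median-ratio scaling, 0.05 with quantile normalization, 0.12 with library weights and 0.09 without FMT-DSS 2 and 4, where Irf9 was also 0.09; with library weights Ifit3 was −0.01 and Bst2 0.10. In FMT-SP against FMT-DSS, library weights gave Isg15 −0.01, Irf7 −0.00, Irf9 −0.14 and Bst2 −0.02; without FMT-DSS 2 and 4 Ifit2 was −0.06 and Irf9 −0.14, and without the libraries numbered 4 Irf9 was −0.09. In FMT-SP against FMT-CON, library weights gave Ifit3 −0.15 and Isg15 −0.16, and leaving out the libraries numbered 4 gave −0.16 and −0.00. A pseudocount of 0.1 gave Ifit1 −0.34 in FMT-DSS against FMT-CON and 0.35 in FMT-SP against FMT-DSS.

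Leaving out 1 library at a time, changes in FMT-DSS against FMT-CON ran from −0.21 to −0.05 for Ifit1, 0.07 to 0.17 for Rtp4, −0.14 to 0.10 for Ifit2, −0.04 to 0.17 for Ifit3, −0.26 to −0.03 for Isg15, −0.37 to −0.21 for Irf7, −0.43 to −0.08 for Irf9, −0.11 to 0.17 for Stat2 and −0.24 to 0.08 for Bst2. In FMT-SP against FMT-DSS they ran from 0.05 to 0.16 for Ifit1, −0.05 to 0.16 for Ifit2, −0.12 to 0.03 for Ifit3, 0.19 to 0.53 for Isg15, 0.14 to 0.35 for Irf7, −0.03 to 0.37 for Irf9, −0.28 to 0.02 for Stat2, −0.04 to 0.29 for Bst2 and −0.11 to 0.08 for Rtp4. In FMT-SP against FMT-CON they ran from −0.09 to 0.07 for Ifit1, −0.10 to 0.15 for Ifit2, −0.09 to 0.12 for Ifit3, 0.03 to 0.36 for Isg15, −0.15 to 0.06 for Irf7, −0.24 to 0.07 for Irf9, −0.26 to 0.06 for Stat2, −0.12 to 0.24 for Bst2 and −0.00 to 0.19 for Rtp4. Depth limits Isg15 and Ifit1 most among the members, with a median of 33 and 45 estimated fragments.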
